A study of Mus musculus with 28 samples.

Results

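The left ventricles of mice infarcted at 7 days of age (7d-MI+21, n = 3) were compared directly with those of mice infarcted at 1 day of age (1d-MI+21, n = 3), both collected 21 days after the operation. These 6 libraries, each with a sample name of its own, were picked by their labels out of 28 in the series. The 6 sham-operated libraries of the same follow-up, 3 from mice operated at 7 days of age (7d-SHAM+21) and 3 from mice operated at 1 day of age (1d-SHAM+21), served to say which infarcted group had moved. All were male Hsd:ICR(CD-1) mice, an outbred stock with no engineered allele. Infarction (MI) was made by tying the left anterior descending coronary artery (LAD), and shams had the operation without the tie. The 7d groups were therefore 28 days old at collection and the 1d groups 22 days old, so that operation day and age at collection cannot be told apart between them. Tissue came from the left ventricular wall remote from the infarct, and RNA of the whole tissue was sequenced, so that fewer cells of a type and less RNA per cell cannot be told apart.

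The newborn mouse heart can replace lost muscle after injury, a capacity that closes within the first week of life, after which an infarct heals as a collagenous scar. Fibroblasts that are activated after infarction secrete collagens, matricellular proteins such as periostin and thrombospondins, and the proteases that remodel them, and they are also a source of complement proteins. Cardiomyocytes switch over the same weeks to fatty acid oxidation under the coactivator PGC-1alpha, and immediate early genes such as the Nr4a receptors respond within minutes to stress, catecholamines and cyclic AMP.

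The 12 libraries held 40514177 to 168550985 counts, of which 0.382% to 62.8% fell on ribosomal RNA loci, and values below are CPM, counts scaled to library size by TMM, a method that sets libraries to a common level from the bulk of their genes. The mitochondrial share of the remaining counts was 15.2% to 29.0% in 7d-MI+21, 20.1% to 24.5% in 1d-MI+21 and 22.1% to 56.4% in the shams. Of 45318 genes in the files 24646 had enough counts to be tested, and the biological coefficient of variation was 0.567. Replicate 1 of 7d-SHAM+21 stood apart from the other shams: over 9134 genes its deviations correlated at -0.72 to 0.04 with the other 5 shams and at 0.18 to 0.68 with the 3 libraries of 1d-MI+21. Counts of genes past a test over all genes that leaving it out moves are given without it as well, while counts within lists keep it. It also bears on which genes lie below the shams. Of the 157 genes picked by the rule for named genes, 4 had 7d-MI+21 below every sham with it and 11 without it. For 1d-MI+21 these numbers were 11 and 21. Ventricular markers were expressed in both infarcted groups. The ventricular myosin light chain Myl2 had 2039, 3184 and 3761 CPM in 7d-MI+21 and 5767, 4679 and 4721 CPM in 1d-MI+21, against 2037 to 4265 CPM in the shams. The 12 ventricular markers summed to 32065 to 36926 CPM in 7d-MI+21 and 42347 to 46310 CPM in 1d-MI+21, against 19407 to 41578 CPM in the shams. Atrial markers, given below, summed to 2225 to 4633 CPM in 7d-MI+21 and 459 to 1436 CPM in 1d-MI+21, against 158 to 1046 CPM in the shams. Whether the samples differed in atrial tissue was not tested. Each group carries a single prefix of sample names of its own, so that group and whatever the prefix marks cannot be told apart. The labels do not say that each library is a separate animal, and p-values measure only the spread between these samples, which may be technical.

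Set against 1d-MI+21, 7d-MI+21 differed in 8 of 24646 genes (0.0325%) by the quasi-likelihood test of edgeR at an adjusted p under 0.05 (Benjamini-Hochberg over all genes, 4 group means, 12 libraries). The complement components C3 and C7, the class II histocompatibility chain H2-Eb1, the collagen Col8a1 and a pair of noncoding transcripts, Gm7292 and 1700030F04Rik, were higher in 7d-MI+21. The coactivator gene Ppargc1a and the nuclear receptor gene Nr4a3 were lower in 7d-MI+21. Against the 6 sham libraries, 7d-MI+21 alone stood above them for C3 and Col8a1, and both infarcted groups stood apart on opposite sides for C7, H2-Eb1 and Ppargc1a. For Nr4a3, Gm7292 and 1700030F04Rik, 1d-MI+21 alone stood apart. Here and below a group is said to stand apart when all 3 of its libraries lie above, or all 3 below, all 6 shams.

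**Figure D1:**
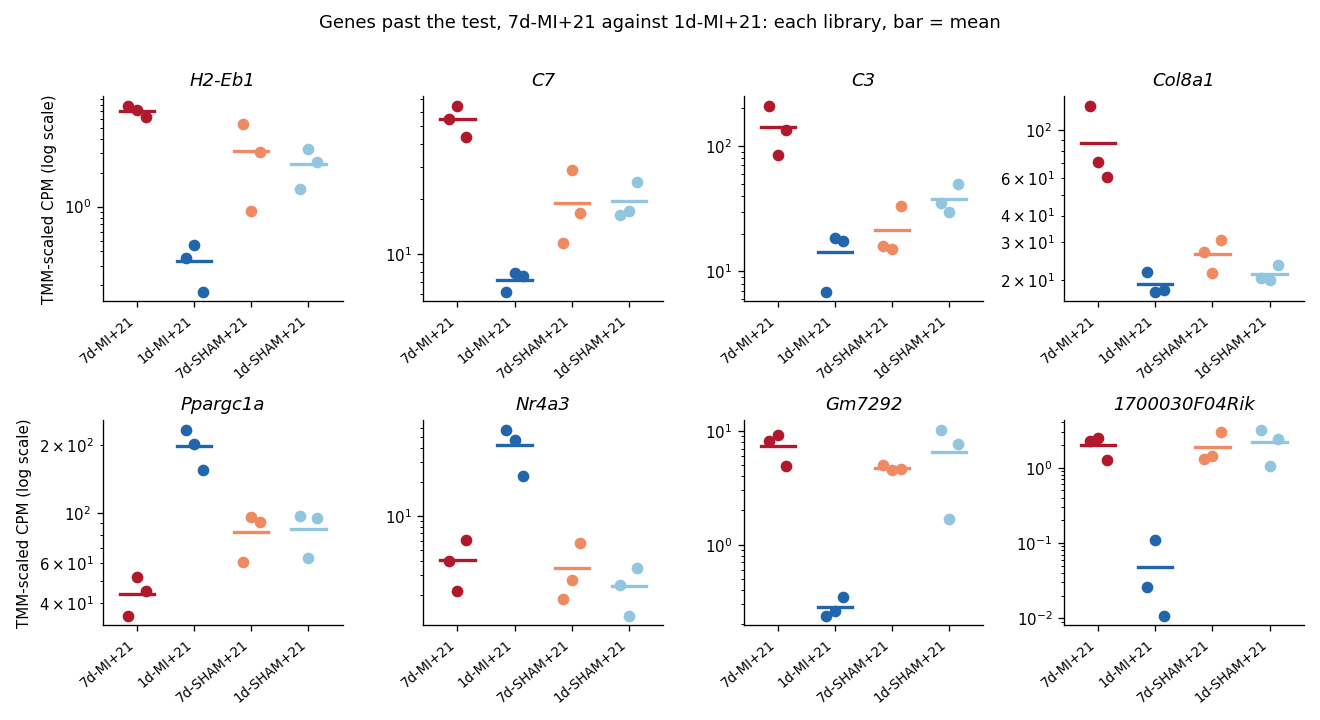
TMM-scaled CPM on a log axis for the 8 genes past the test between the infarcted groups, in each library of the 4 groups, with the group mean as a bar. The 3 libraries of 7d-MI+21 and the 3 of 1d-MI+21 do not overlap in any panel, and the shams lie between them for C7, H2-Eb1 and Ppargc1a.

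C3, the central complement component on which all 3 activation routes converge (GRCm38 chr17:57203970-57228136), measured 209.6, 85.1 and 134 CPM in 7d-MI+21 and 6.84, 18.5 and 17.6 CPM in 1d-MI+21, against 15 to 49.4 CPM with a median of 31.4 in the shams. All 3 libraries of 7d-MI+21 lay above every other library, and those of 1d-MI+21 lay within the shams or below them. The log2 fold change of 7d-MI+21 over 1d-MI+21 was 3.32 ± 0.49 (SE, adjusted p = 0.026 by edgeR), and over the shams it was 2.33 (adjusted p = 0.014).
C7, which joins the pore-forming complement complex (chr15:4988762-5063773), measured 54.8, 64.7 and 43.9 CPM in 7d-MI+21 and 6.18, 7.89 and 7.6 CPM in 1d-MI+21, against 11.4 to 28.9 CPM with a median of 17 in the shams. Here the shams lay between the infarcted groups without overlap on either side, and the difference of 2.91 ± 0.37 (adjusted p = 0.012) was split into 1.5 for 7d-MI+21 over the shams (adjusted p = 0.036) and -1.41 for 1d-MI+21 over the shams (adjusted p = 0.13).
H2-Eb1, which encodes the beta chain of an antigen-presenting class II molecule (chr17:34305877-34316199), had 7.86, 7.26 and 6.21 CPM in 7d-MI+21 and 0.353, 0.458 and 0.174 CPM in 1d-MI+21, against 0.914 to 5.38 CPM with a median of 2.78 in the shams. The low side was the farther one: 1d-MI+21 stood -3.11 from the shams (adjusted p = 0.04, held in 9 of 21 alternatives) and 7d-MI+21 1.38 (adjusted p = 0.11), with 4.5 ± 0.61 between the infarcted groups (adjusted p = 0.012). Of the 11 class II genes tested, H2-Eb1 was the single one past the test (0.0325% of all genes). At an unadjusted p under 0.05, 2 were higher (4.66% of all genes). The partner genes H2-Aa, H2-Ab1 and Cd74 differed by 0.2, 0.63 and 0.57 with overlapping libraries, although each stood above the shams in 7d-MI+21. In the whole list 4 of the 11 did so (3.67% of all genes). The list summed to 56.4 to 61.8 CPM in 7d-MI+21 and 23.4 to 53.4 CPM in 1d-MI+21, against 25.3 to 44.9 CPM in the shams.

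Col8a1, a short-chain collagen of vessel walls (chr16:57624258-57754737), had 130, 70.8 and 60.5 CPM in 7d-MI+21 and 21.8, 17.6 and 18 CPM in 1d-MI+21, against 20.1 to 30.9 CPM with a median of 22.6 in the shams. It was 7d-MI+21 that had moved, by 1.87 ± 0.27 over the shams (adjusted p = 0.0099), and the infarcted groups differed by 2.19 ± 0.33 (adjusted p = 0.034).
Gm7292 (chr6:117716342-117718868, plus strand) lies inside the longer noncoding gene 1700030F04Rik (chr6:117646693-117751769, minus strand), and since the strand setting of the counting is not given in the sources used here, their reads cannot be told apart. Gm7292 measured 8.13, 9.15 and 4.95 CPM in 7d-MI+21 and 0.235, 0.262 and 0.349 CPM in 1d-MI+21, against 1.69 to 10.3 CPM with a median of 4.82 in the shams. The low libraries are those of 1d-MI+21, -4.27 from the shams (adjusted p = 0.0051), while 7d-MI+21 lay within them. 1700030F04Rik showed the same order, with 2.24, 2.51 and 1.26 CPM in 7d-MI+21 and 0.0261, 0.109 and 0.0107 CPM in 1d-MI+21, against 1.05 to 3.2 CPM in the shams. Its difference between the infarcted groups was 5.82 ± 0.78 (adjusted p = 0.012).

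The count of 8 rested on single libraries, although no direction changed. Without replicate 1 or replicate 3 of 1d-MI+21 it was 0, without replicate 2 of 1d-MI+21 it was 1, and without replicate 1 of 7d-MI+21 or replicate 2 of 1d-SHAM+21 it was 4. It grew to 99, 14 or 24 without replicate 1, 2 or 3 of 7d-SHAM+21. Without replicate 2 of 7d-MI+21 it was 21 and without replicate 3 of 1d-SHAM+21 it was 13.

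Each infarcted group set against all 6 shams gave a larger count, and with all 12 libraries in edgeR the counts of the groups were unequal. In 7d-MI+21 166 genes (0.674%) passed the test against the shams, 144 higher (0.584%) and 22 lower (0.0893%), and in 1d-MI+21 29 genes (0.118%) passed, 24 higher (0.0974%) and 5 lower (0.0203%). Both comparisons use the same 6 shams. Of the 144 genes higher in 7d-MI+21, 137 are protein-coding, 95 had 7d-MI+21 alone above all shams, 33 had both infarcted groups above them, 1 had 7d-MI+21 above and 1d-MI+21 below them, in 15 neither group stood apart, and 138 had a higher level in 7d-MI+21 than in 1d-MI+21. Their median log2 fold change over the shams was 1.68 in 7d-MI+21 and 0.57 in 1d-MI+21, and the first of these values is a description, since it chose the genes. Of the 24 genes higher in 1d-MI+21, 10 had 1d-MI+21 alone above the shams, 13 had both groups above them, in 1 neither stood apart, and 22 lay lower in 7d-MI+21. Their medians over the shams were 1.24 in 7d-MI+21 and 2.38 in 1d-MI+21, the second of which chose the genes.

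The number for 7d-MI+21 ranged from 1 without replicate 2 of 1d-SHAM+21, and 2 without replicate 1 of 7d-MI+21, to 5961 without replicate 1 of 7d-SHAM+21. It was 25 and 1030 without replicates 3 and 2 of 7d-MI+21, 38 without replicate 2 of 7d-SHAM+21, 55 and 90 without replicates 2 and 3 of 1d-MI+21, and 77 and 83 without replicates 3 and 5 of 1d-SHAM+21. That for 1d-MI+21 ranged from 5 without its own replicate 2 to 5520 without replicate 1 of 7d-SHAM+21. It was 9 without its replicate 1, 10 and 8 without replicates 2 and 3 of 7d-SHAM+21, and 8, 15 and 17 without replicates 2, 3 and 5 of 1d-SHAM+21. The inequality of the counts thus depended on the libraries and the tool. Without replicate 1 of 7d-SHAM+21 they were close (5961 and 5520), as they were by limma-voom (9266 and 9084). Without replicate 2 of 1d-SHAM+21 their order turned, with 1 for 7d-MI+21 and 8 for 1d-MI+21.
Every call over the shams was tried in 21 alternatives, which changed the scaling, the filter or the tool, added a block or left libraries out. Of the 166 calls of 7d-MI+21, 17 held in at least 19 of them and 84 in fewer than 11, and of the 29 calls of 1d-MI+21, 6 held in at least 19 and 7 in fewer than 11. Among the genes named, the calls of 7d-MI+21 held in 19 for Col8a1, C4b, Cilp, Ltbp2, Serpina3n, Sfrp1, Cpxm2, Tgfb3, Krt18, Clu, Spon2, Aebp1 and Thbs3, in 18 for C3, Serping1, Mmp2, Pdgfrl and Dkk3, in 17 for Ctsk, in 16 for Bicc1, in 14 for Comp and in 12 for C7. Those of 1d-MI+21 held in 21 for Nr4a3 and 1700030F04Rik, in 20 for Gm7292 and Fos, in 18 for Cdkn1a, in 16 for Agt and Cnksr1, in 15 for Spon2, in 13 for Fam107a and H2-D1, and in 12 for Nr4a1 and Atf3. Calls that held in 10 or fewer are marked where they are given.

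Against the shams of the same operation day alone, the number of genes was smaller still. Between 7d-MI+21 and 7d-SHAM+21 0 genes (0%) passed edgeR, with 4111 at an unadjusted p under 0.05, 988 by DESeq2 and 11216 by limma-voom. In edgeR 5903 passed once replicate 1 of 7d-SHAM+21 was left out, 24 without replicate 2 of 7d-MI+21, 11 without replicate 3 of 7d-SHAM+21 and 1 without replicate 5 of 1d-SHAM+21. Between 1d-MI+21 and 1d-SHAM+21 4 genes (0.0162%) passed, among them Nr4a3 at 4.13 (adjusted p = 0.019), Gm7292 at -4.51 and 1700030F04Rik at -5.98. The number was 0 without replicate 1 of 1d-MI+21 or replicate 2 of 1d-SHAM+21, 1 without replicate 2 of 1d-MI+21, 7 without its replicate 3, 2 without replicate 3 of 1d-SHAM+21 and 1209 without replicate 1 of 7d-SHAM+21. The shams of both ages differed in 0 genes (0%) by edgeR, with 442 at an unadjusted p under 0.05 and 0 by DESeq2 and by limma-voom. The difference of the MI effect between the ages, an interaction, passed in 0 genes (0%), with 927 at an unadjusted p under 0.05, 41 by DESeq2, 43 by limma-voom and 7 without replicate 1 of 7d-SHAM+21. The fold changes of the genes named here are differences between the infarcted groups or over the shams, as stated with each. For none of these genes was the effect of MI, each against its own shams, shown to differ with age.

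**Figure D2:**
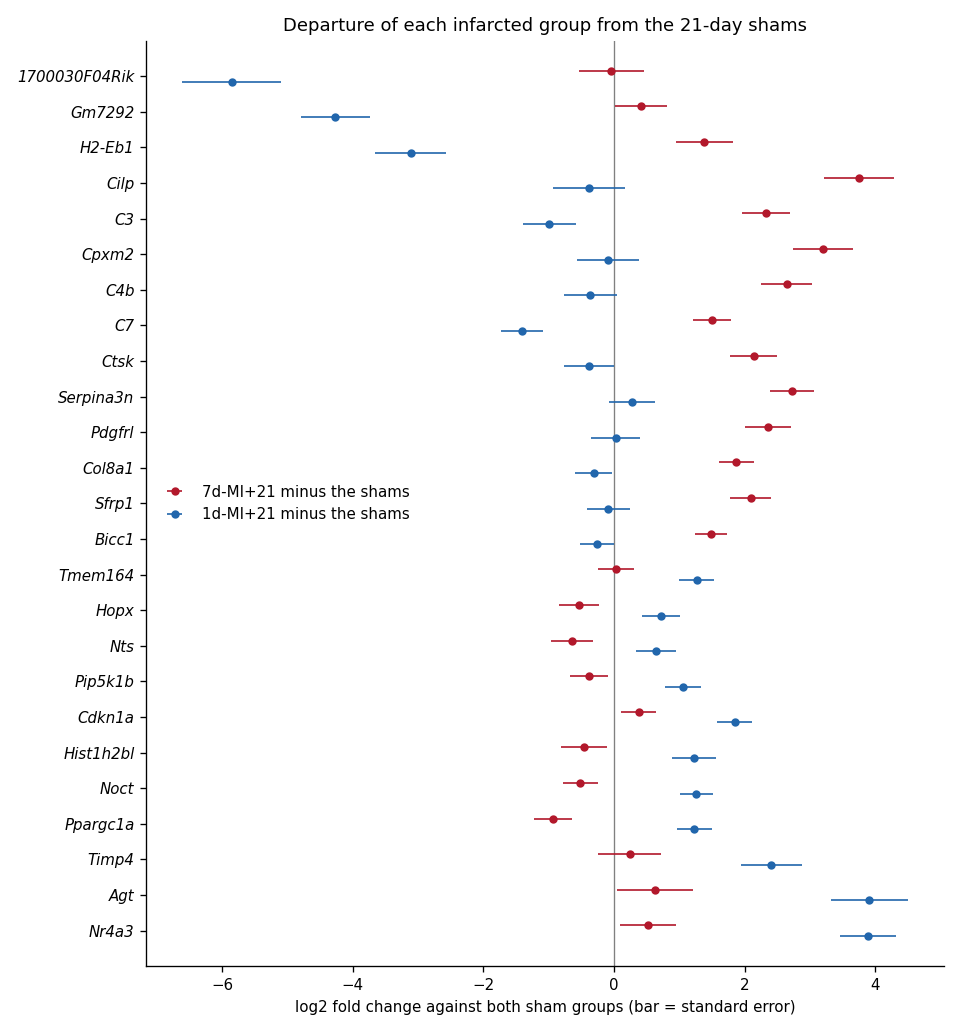
Log2 fold change over all 6 shams, with its standard error, of 7d-MI+21 (red) and of 1d-MI+21 (blue), for 25 of the genes past the test between the infarcted groups and the 12 higher and 12 lower protein-coding genes of smallest p by the rule for named genes, from the highest difference at the top. Cilp, Cpxm2, C4b and Serpina3n lie to the right for 7d-MI+21 with 1d-MI+21 near 0, Nr4a3, Agt and Timp4 lie to the right for 1d-MI+21 with 7d-MI+21 within 1 of 0, and Ppargc1a lies on opposite sides.

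Complement genes were among those higher in 7d-MI+21. Of 43 complement genes tested, C3 and C7 passed the test between the infarcted groups (0.0325% of all genes). At an unadjusted p under 0.05, 18 were higher in 7d-MI+21 and 0 lower, to be read beside 4.66% of all genes higher and 1.86% lower. In 16 of the 43 all 3 libraries of 7d-MI+21 lay above the 3 of 1d-MI+21 and in 2 they lay below, where 8.9% and 7.37% of all genes did so. The departure was on the side of 7d-MI+21, which stood above the shams in 13 of the 43 and below them in 0 (3.67% and 2.66% of all genes), while 1d-MI+21 stood above them in 1 and below them in 3 (2.97% and 2.94% of all genes). The medians over the list were 0.50 for 7d-MI+21 and -0.18 for 1d-MI+21 over the shams, beside medians of -0.09 and -0.16 over all genes.
By role, the classical route held the most: 6 of its 10 genes were higher in 7d-MI+21 at an unadjusted p under 0.05 (4.66% of all genes). C4b, which is cleaved by the classical and lectin proteases, had 55.6, 19.9 and 31 CPM in 7d-MI+21 and 2.33, 6.04 and 4.96 CPM in 1d-MI+21, against 3.56 to 9.5 CPM with a median of 4.91 in the shams. Every library of 7d-MI+21 lay above every other library, the gene rose by 2.64 ± 0.39 over the shams (adjusted p = 0.0099), and between the infarcted groups it reached 3 ± 0.5 (adjusted p = 0.051, not past the test). Its near-identical copy C4a can share reads with it, and the same holds for C1s1 and its copy C1s2, so that the values of these genes are uncertain. C2, the protease that joins C4b, measured 7.21, 2.94 and 3.88 CPM in 7d-MI+21 and 0.927, 1.46 and 1.42 CPM in 1d-MI+21, against 1.02 to 2.43 CPM in the shams. C1s1, a protease of the first component, had 28.4, 19.9 and 20.7 CPM in 7d-MI+21 and 8.5, 8.07 and 9.98 CPM in 1d-MI+21, against 6.73 to 15.1 CPM in the shams. Both stood above the shams in 7d-MI+21 alone, without passing the test (1.88 and 1.38 between the infarcted groups, adjusted p = 0.16 and 0.22).
Of the 3 genes of the alternative start, Cfb, which carries the protease of the alternative convertase, had 6.36, 3.28 and 4.66 CPM in 7d-MI+21 and 1.66, 1.96 and 2.04 CPM in 1d-MI+21, against 1.33 to 2.86 CPM in the shams. Among the inhibitors, Serping1, which blocks the first proteases, had 87, 75 and 107 CPM in 7d-MI+21 and 36.2, 45.7 and 36.9 CPM in 1d-MI+21, against 24.1 to 38.5 CPM in the shams. It rose by 1.52 ± 0.24 over the shams in 7d-MI+21 (adjusted p = 0.014). The inhibitor Clu, or clusterin, was the 1 gene of the list above the shams in both infarcted groups, with 267, 119 and 225 CPM in 7d-MI+21 and 119, 90.1 and 86.9 CPM in 1d-MI+21, against 33.3 to 60.2 CPM in the shams. It rose in 7d-MI+21 (2.16, adjusted p = 0.0099). The terminal genes had a median of -0.37 over 6, and C7 was the 1 of them past an unadjusted p of 0.05. Markers of macrophages, which also make complement, summed over the 12 tested to 413 to 457 CPM in 7d-MI+21 and 332 to 430.3 CPM in 1d-MI+21, against 267 to 452 CPM in the shams, with 2 higher and 1 lower at an unadjusted p under 0.05 (4.66% and 1.86% of all genes) and none past the adjusted test. Markers of recruited monocytes and dendritic cells, which carry class II molecules, were higher in 7d-MI+21 than in 1d-MI+21 in all 8 tested, 4 without overlap (8.9% of all genes), 2 at an unadjusted p under 0.05 (4.66%) and none past the adjusted test. They summed to 12.2 to 22.2 CPM in 7d-MI+21 and 3.49 to 11.1 CPM in 1d-MI+21, against 4.86 to 18.2 CPM in the shams, with medians over the shams of 0.13 in 7d-MI+21 and -1.11 in 1d-MI+21. Itgax, the integrin chain CD11c of dendritic cells, had 9.31, 0.582 and 5.94 CPM in 7d-MI+21 and 0.287, 0.545 and 0.409 CPM in 1d-MI+21, against 0.358 to 1.47 CPM in the shams (3.69 ± 0.8 between the infarcted groups, adjusted p = 0.16). Fibroblast and mesothelial markers are given below, and the part of any cell type in the complement and class II values was not tested.

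Among the 43 lists, the matrix list held the most genes that rose over the shams in 7d-MI+21. Of 45 matrix glycoproteins and proteoglycans tested, 23 were higher and 0 lower in 7d-MI+21 at an unadjusted p under 0.05 (4.66% and 1.86% of all genes), none passed the adjusted test, and in 26 the 3 libraries of 7d-MI+21 lay above the 3 of 1d-MI+21 (8.9% of all genes). Against the shams, 15 of the 45 rose in 7d-MI+21 and 0 in 1d-MI+21 by the adjusted test (0.584% and 0.0974% of all genes), and 25 stood above all shams in 7d-MI+21 against 4 in 1d-MI+21 (3.67% and 2.97%). The list's medians over the shams were 1.31 in 7d-MI+21 and 0.32 in 1d-MI+21.
Its matricellular members, secreted proteins that signal to cells rather than bear load, had the highest median of its 4 roles (1.92 between the infarcted groups over 14 genes). Thbs4, a pentameric thrombospondin, had 171, 39.3 and 56 CPM in 7d-MI+21 and 4.94, 7.76 and 7.31 CPM in 1d-MI+21, against 3.47 to 32.7 CPM with a median of 6.25 in the shams. The lowest library of 7d-MI+21 lay above the highest sham, and the 3 of 1d-MI+21 lay among the shams. Comp, its relative from cartilage and tendon, had 70.4, 11.2 and 21.4 CPM in 7d-MI+21 and 0.692, 4.19 and 4.95 CPM in 1d-MI+21, against 1.06 to 5.46 CPM with a median of 2.54 in the shams. It rose by 3.59 ± 0.64 over them in 7d-MI+21 (adjusted p = 0.025). Postn, or periostin, the marker gene of activated fibroblasts, had 296, 162 and 124 CPM in 7d-MI+21 and 17.5, 27.5 and 50.2 CPM in 1d-MI+21, against 12.4 to 82.3 CPM with a median of 29.4 in the shams. Its libraries of 7d-MI+21 stood above all others, and it did not pass the test (2.21 over the shams, adjusted p = 0.058).
Replicate 1 of 7d-MI+21 was the highest library for Cilp, Thbs4, Comp and Postn, and the order of the groups was the same in its replicates 2 and 3. Cilp, an extracellular protein of cartilage and of cardiac fibroblasts, measured 131, 42.1 and 53.5 CPM in 7d-MI+21 and 3.93, 4.47 and 4.53 CPM in 1d-MI+21, against 1.45 to 14.9 CPM with a median of 4.16 in the shams. It rose by 3.75 ± 0.53 over the shams in 7d-MI+21 (adjusted p = 0.0099), stood at -0.38 in 1d-MI+21, and was short of the test between the infarcted groups (4.13 ± 0.71, adjusted p = 0.061). Ltbp2, a relative of the proteins that hold latent TGF-beta in the matrix, had 85.6, 16.5 and 30.5 CPM in 7d-MI+21 and 2.33, 4.25 and 5.96 CPM in 1d-MI+21, against 1.52 to 6.97 CPM with a median of 3.61 in the shams, a rise of 3.51 ± 0.51 over the shams in 7d-MI+21 (adjusted p = 0.0099).

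**Figure D3:**
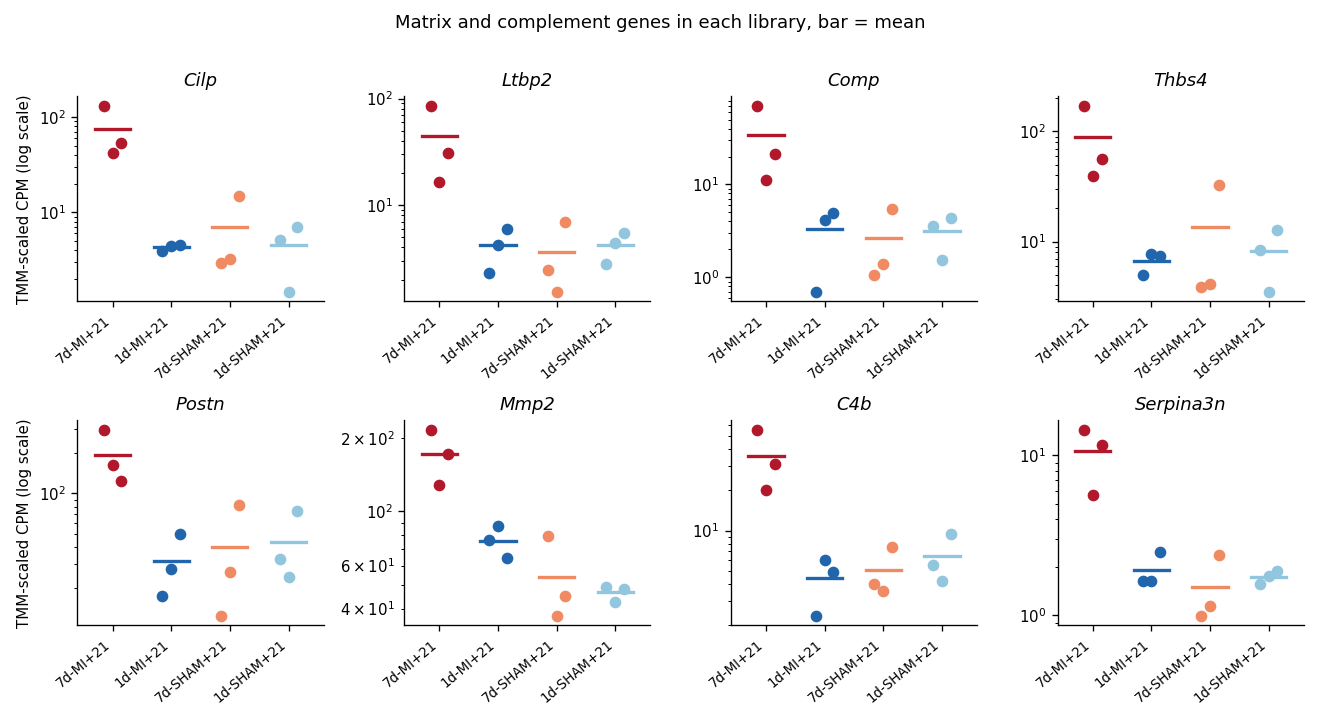
TMM-scaled CPM on a log axis for 8 matrix and complement genes in each library, with group means as bars. In all 8 panels the 3 libraries of 7d-MI+21 lie above the 3 of 1d-MI+21 and above the 6 shams, and the range of 1d-MI+21 overlaps that of the shams.

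The fibrous collagens lay above the shams in part in 1d-MI+21 too. Of 16 tested, 9 stood above all shams in 7d-MI+21 and 3 in 1d-MI+21 (3.67% and 2.97% of all genes), and their medians over the shams were 1.57 in 7d-MI+21 and 0.65 in 1d-MI+21. Col3a1, a main collagen of soft tissue, had 2046, 1253 and 1720 CPM in 7d-MI+21 and 939.8, 1318 and 1378 CPM in 1d-MI+21, against 312 to 969 CPM with a median of 599.9 in the shams. The infarcted groups overlapped for it (0.46 ± 0.43 between them, adjusted p = 0.91), and only 7d-MI+21 lay wholly above the shams. Col5a2, a collagen that nucleates fibrils, lay above the shams in both, with 339, 174 and 230.3 CPM in 7d-MI+21 and 127, 135 and 145 CPM in 1d-MI+21, against 42.4 to 117 CPM in the shams. It rose in 7d-MI+21 (1.56, adjusted p = 0.049, held in 7 of 21 alternatives). Col14a1, a collagen of fibril surfaces, had 206, 78 and 86.2 CPM in 7d-MI+21 and 28.1, 30.3 and 40.8 CPM in 1d-MI+21, against 10.5 to 56.5 CPM in the shams.
Of 22 matrix proteases and inhibitors, 5 rose over the shams in 7d-MI+21 and 0 in 1d-MI+21 (0.584% and 0.0974% of all genes). The list as a whole lay higher in both groups, with medians over the shams of 1.23 in 7d-MI+21 and 0.69 in 1d-MI+21. It summed to 810 to 1101 CPM in 7d-MI+21 and 624 to 819 CPM in 1d-MI+21, against 267 to 519 CPM in the shams. Mmp2, a gelatinase, had 216, 128 and 172 CPM in 7d-MI+21 and 76.2, 86.9 and 64.4 CPM in 1d-MI+21, against 37.3 to 79.6 CPM with a median of 46.6 in the shams. It rose by 1.77 ± 0.28 over the shams in 7d-MI+21 (adjusted p = 0.014). Ctsk, a collagen-degrading cathepsin, had 42.1, 11.4 and 25 CPM in 7d-MI+21 and 3.75, 5.8 and 4.07 CPM in 1d-MI+21, against 3.89 to 9.46 CPM in the shams. Timp4, an inhibitor of these enzymes expressed in heart, lay lower in 7d-MI+21: 2.2, 7.27 and 19.4 CPM in 7d-MI+21 and 50, 46.1 and 33.6 CPM in 1d-MI+21, against 3.82 to 13.4 CPM in the shams, so 1d-MI+21 alone lay above the shams (2.41, adjusted p = 0.074).
Of the TGF-beta list, latent binding proteins and antagonists had a median of 1.10 between the infarcted groups over 13 genes, and ligands 0.27 over 10. Tgfb3, a ligand, had 73.4, 46 and 49.4 CPM in 7d-MI+21 and 24.8, 26.7 and 21.4 CPM in 1d-MI+21, against 9.57 to 23.4 CPM in the shams. It rose by 1.88 ± 0.29 over the shams in 7d-MI+21 (adjusted p = 0.013). Serpina3n, a secreted inhibitor of serine proteases, had 14.4, 5.67 and 11.6 CPM in 7d-MI+21 and 1.65, 1.64 and 2.48 CPM in 1d-MI+21, against 0.99 to 2.4 CPM in the shams. Sfrp1, a secreted antagonist of Wnt ligands, had 50.2, 15.6 and 30.1 CPM in 7d-MI+21 and 7.26, 7.72 and 6.21 CPM in 1d-MI+21, against 5.34 to 9.16 CPM in the shams. Both rose over the shams in 7d-MI+21 (adjusted p = 0.009 and 0.01). Pdgfrl, Cpxm2 and Bicc1 also rose over the shams in 7d-MI+21, by 2.36, 3.2 and 1.49, with fold changes in 1d-MI+21 of 0.03, -0.1 and -0.26. None of the 3 stood apart from the shams in 1d-MI+21, where 2 libraries lay below every sham for Bicc1 and 1 did for Cpxm2.

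Markers of other cell types moved with these genes, and their part in the differences was not tested. Fibroblast markers lay higher in 7d-MI+21: all 10 tested had a positive difference between the infarcted groups, 9 without overlap (8.9% of all genes), with a summed level of 2644 to 3771 CPM in 7d-MI+21 and 1485 to 1761 CPM in 1d-MI+21, against 859 to 1521 CPM in the shams. Pdgfra, the receptor that marks cardiac fibroblasts, had 106, 66.4 and 67.6 CPM in 7d-MI+21 and 27.6, 27.2 and 38.7 CPM in 1d-MI+21, against 25.3 to 55.7 CPM in the shams. Dcn, or decorin, had 926, 715 and 617 CPM in 7d-MI+21 and 285, 300.4 and 359 CPM in 1d-MI+21, against 233 to 429 CPM in the shams. All 3 libraries of 7d-MI+21 lay above every other library for both genes, and neither passed the test over the shams (adjusted p = 0.063 and 0.07). The activated set had 8 of 10 higher at an unadjusted p under 0.05 (4.66% of all genes), and its contractile marker Acta2, shared with smooth muscle, was the 1 lower: 95.7, 95.7 and 117 CPM in 7d-MI+21 and 440.2, 275 and 345 CPM in 1d-MI+21, against 36.4 to 236 CPM in the shams.
Mesothelial and epicardial markers, of which 8 of 12 were higher at an unadjusted p under 0.05 (4.66% of all genes), summed to 44.5 to 77.3 CPM in 7d-MI+21 and 24.2 to 35.4 CPM in 1d-MI+21, against 23.5 to 36.3 CPM in the shams. Krt18, a keratin of such linings, rose in 7d-MI+21 (4.81 over the shams, adjusted p = 0.0099), with 11.4, 0.937 and 2.9 CPM in 7d-MI+21 and 0.314, 0.196 and 0.509 CPM in 1d-MI+21, against 0.0179 to 0.703 CPM in the shams. Replicate 1 of 7d-MI+21 was far the highest for it, and the epicardial factor gene Wt1 differed by -0.19 ± 0.37, less than its error. Markers of valve and cartilage-like cells, among them Comp, were higher in 6 of 12 at that threshold (again beside 4.66%) and summed to 66.5 to 190.1 CPM in 7d-MI+21 and 15.1 to 42.7 CPM in 1d-MI+21, against 13 to 67.4 CPM in the shams.
White adipocyte markers were higher in 8 of 13 at an unadjusted p under 0.05 (4.66% of all genes), while their sum, 1025 to 1588 CPM in 7d-MI+21 and 1407 to 1660 CPM in 1d-MI+21, against 1280 to 1936 CPM in the shams, was made up mostly of abundant members. Cfd, or adipsin, had 6.38, 3.86 and 5.58 CPM in 7d-MI+21 and 0, 0.48 and 0.235 CPM in 1d-MI+21, against 0 to 1.98 CPM in the shams. The lipid droplet gene Cidec had 2.63, 2.59 and 4.09 CPM in 7d-MI+21 and 0, 0.654 and 0.185 CPM in 1d-MI+21, against 0.143 to 1.77 CPM in the shams. Both lay above the shams in 7d-MI+21, and neither passed the test (0.44 and 0.35 adjusted p between the infarcted groups). Adiponectin, encoded by Adipoq, had 4.14, 3.43 and 5.64 CPM in 7d-MI+21 and 0, 0.284 and 0.416 CPM in 1d-MI+21, against 0 to 4.04 CPM in the shams, so neither infarcted group stood apart. The abundant members Fabp4 and Lpl, which cardiac endothelium and muscle also express, had -0.71 ± 0.42 and -0.03 ± 0.34.
Atrial markers varied from library to library and summed to 2225 to 4633 CPM in 7d-MI+21 and 459 to 1436 CPM in 1d-MI+21, against 158 to 1046 CPM in the shams. All 7 tested lay higher in 7d-MI+21 than in 1d-MI+21, 2 of them without overlap (8.9% of all genes) and 1 at an unadjusted p under 0.05 (4.66%). Their medians over the shams were 2.89 in 7d-MI+21 and 1.02 in 1d-MI+21. Dkk3, a secreted Wnt modulator, was the 1 of them that rose over the shams in 7d-MI+21 by the adjusted test (0.584% of all genes). Myl4, the atrial light chain, had 77.4, 547 and 408 CPM in 7d-MI+21 and 4.34, 345 and 95.2 CPM in 1d-MI+21, against 2.2 to 162 CPM with a median of 16.5 in the shams. Nppa, the natriuretic peptide gene that atria express and that ventricles express under load, had 4422, 1857 and 1657 CPM in 7d-MI+21 and 392, 948 and 1206 CPM in 1d-MI+21, against 85.5 to 965 CPM with a median of 418 in the shams. Every 7d-MI+21 library lay above the shams for Nppa and 1 of the 3 of 1d-MI+21 did, and the gene missed the test over the shams in 7d-MI+21 (adjusted p = 0.094). A stretch-responsive gene of cardiomyocytes, Ankrd1, had 1513, 479 and 594 CPM in 7d-MI+21 and 259, 177 and 221 CPM in 1d-MI+21, against 175 to 321 CPM with a median of 268 in the shams. It rose in 7d-MI+21 by 1.75 ± 0.36 over the shams (adjusted p = 0.045). That call held in 7 of 21 alternatives and was lost with the block and with DESeq2 size factors. Ankrd1 belongs to a wall stress list of 17 genes, with medians over the shams of 1.37 in 7d-MI+21 and 0.91 in 1d-MI+21. The list summed to 9943 to 12736 CPM in 7d-MI+21 and 8533 to 10640.5 CPM in 1d-MI+21, against 3487 to 7934 CPM in the shams. By this sum both infarcted groups lay above every sham. Between them, 11 of the 17 genes had a positive difference and 6 a negative difference.

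The genes that stood above the shams in 1d-MI+21 and not in 7d-MI+21 included the receptor genes Nr4a3 and Nr4a1, glucocorticoid-responsive genes and Ppargc1a. Nr4a3, which encodes the orphan nuclear receptor NOR-1 (chr4:48045153-48086447), measured 3.94, 2.17 and 6.1 CPM in 7d-MI+21 and 57.7, 46.4 and 22.4 CPM in 1d-MI+21, against 1.29 to 5.73 CPM with a median of 2.56 in the shams. All 3 libraries of 1d-MI+21 lay above all others, and those of 7d-MI+21 lay among the shams or just above them. The gene was lower in 7d-MI+21 by -3.37 ± 0.54 (adjusted p = 0.048), and it rose in 1d-MI+21 by 3.89 ± 0.43 over the shams (adjusted p = 0.0035). Its relative Nr4a1 had 6.49, 4.98 and 5.4 CPM in 7d-MI+21 and 18.7, 31.8 and 6.25 CPM in 1d-MI+21, against 2.2 to 6.09 CPM with a median of 3 in the shams. It rose in 1d-MI+21 by 2.5 ± 0.41 over the shams (adjusted p = 0.027). Replicate 3 of 1d-MI+21 was its lowest and overlapped 7d-MI+21.
Fos and Atf3 also rose in 1d-MI+21. Fos, a subunit of AP-1, had 4.25, 3.23 and 2.97 CPM in 7d-MI+21 and 4.44, 11.3 and 6.86 CPM in 1d-MI+21, against 1.06 to 1.97 CPM with a median of 1.27 in the shams. It rose by 2.4 ± 0.31 over the shams in 1d-MI+21 (adjusted p = 0.0051). Here 7d-MI+21 also lay above every sham, by 1.3 (adjusted p = 0.066). Atf3, a stress-induced factor, passed the test over the shams in both groups, with 7.13, 4.75 and 8.02 CPM in 7d-MI+21 and 16.1, 12.8 and 2.65 CPM in 1d-MI+21, against 1.04 to 2.32 CPM with a median of 1.54 in the shams, and replicate 3 of 1d-MI+21 was the lowest infarcted library. Its call in 7d-MI+21 held in 8 of 21 alternatives. Of 30 genes of the list tested, 6 were lower (1.86% of all genes) and 2 higher (4.66%, so that the 2 are near the share of all genes) in 7d-MI+21 at an unadjusted p under 0.05, the 2 higher being Egr1 and Egr2. The list's medians over the shams were close, 0.28 in 7d-MI+21 and 0.33 in 1d-MI+21. Of its 27 genes other than the Nr4a receptors, the same 2 stood above the shams in both infarcted groups (3.67% and 2.97% of all genes).

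Cyclic AMP is known to act on Nr4a, Fos and Ppargc1a genes through the factor CREB, whose site holds the letters TGACGT, and the promoters of Nr4a3, Fos and Ppargc1a are shown with each match in capitals, on either strand (ACGTCA is the same site read on the other strand). They are RefSeq sequences of GRCm38.p6, from 250 bases before the start site to 50 after it, 5′ to 3′ on the gene's strand, at chr4:48045055-48045354 (plus strand), chr12:85473640-85473939 (plus strand) and chr5:51567676-51567975 (minus strand).
Nr4a3: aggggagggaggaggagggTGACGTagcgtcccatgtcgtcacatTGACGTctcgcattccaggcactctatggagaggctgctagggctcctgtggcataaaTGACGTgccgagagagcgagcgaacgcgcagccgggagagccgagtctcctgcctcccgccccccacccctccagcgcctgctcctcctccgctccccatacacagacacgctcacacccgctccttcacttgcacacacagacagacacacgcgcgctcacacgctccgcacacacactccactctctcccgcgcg
Fos: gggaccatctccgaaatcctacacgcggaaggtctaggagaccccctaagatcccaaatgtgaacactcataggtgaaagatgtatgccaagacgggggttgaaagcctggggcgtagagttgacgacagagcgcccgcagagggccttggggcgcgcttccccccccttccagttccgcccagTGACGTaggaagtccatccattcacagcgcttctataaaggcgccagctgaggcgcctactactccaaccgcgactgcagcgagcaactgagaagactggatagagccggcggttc
Ppargc1a: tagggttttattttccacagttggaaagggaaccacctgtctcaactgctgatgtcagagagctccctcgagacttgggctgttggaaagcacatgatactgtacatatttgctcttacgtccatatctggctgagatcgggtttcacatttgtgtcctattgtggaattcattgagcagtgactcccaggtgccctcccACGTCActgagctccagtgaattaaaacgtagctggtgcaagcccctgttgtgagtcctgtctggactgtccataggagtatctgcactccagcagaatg
The Nr4a3 promoter holds 3 matches, the first at -231 from the start site, that of Fos 1 match at -66 and that of Ppargc1a 1 match at -50. The motif and the genes shown were chosen after the values were seen. The motif occurs in 2468 of 32851 single promoters of this length (7.51%). The other shares are by gene, where a gene counts if any of its promoters holds a match, so they are not comparable with that one. Among genes tested that have a promoter, 1617 of 14448 hold it (11.2%). Of those higher in 1d-MI+21 than in the shams, 5 of 17 do (29.4%, Atf3, Cnksr1, Fos, Maff and Nr4a3), and of those higher in 7d-MI+21, 6 of 100 (6%). Nr4a3 and Fos, shown above, are among the 5, and Atf3 and Cnksr1 are in both sets, so these shares are only a description. A match is a run of letters and says nothing of binding.

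Glucocorticoid-responsive and fasting-responsive genes formed the second group. Of 25 tested, 11 were lower and 0 higher in 7d-MI+21 at an unadjusted p under 0.05 (1.86% and 4.66% of all genes), and in 9 the 3 libraries of 7d-MI+21 lay below the 3 of 1d-MI+21 (7.37%). All shams lay below 7d-MI+21 in 0 of these genes and below 1d-MI+21 in 7 (3.67% and 2.97% of all genes). By the adjusted test 0 rose in 7d-MI+21 over the shams and 4 in 1d-MI+21 (0.584% and 0.0974%). The medians over the shams were 0.57 in 7d-MI+21 and 1.04 in 1d-MI+21.
Cdkn1a, whose product p21 halts the cell cycle, had 6.51, 7.24 and 7.95 CPM in 7d-MI+21 and 24.4, 17.9 and 17.6 CPM in 1d-MI+21, against 3.94 to 7.57 CPM with a median of 5.4 in the shams. The groups did not overlap, and 1d-MI+21 rose over the shams (1.84 ± 0.26, adjusted p = 0.012), with -1.46 ± 0.32 between the infarcted groups (adjusted p = 0.16). Agt, the precursor of angiotensin, had 0.944, 2.94 and 2.83 CPM in 7d-MI+21 and 17.6, 37.5 and 10.3 CPM in 1d-MI+21, against 0.287 to 3.11 CPM with a median of 1.15 in the shams. It rose by 3.91 ± 0.58 over the shams in 1d-MI+21 (adjusted p = 0.016). Ace, which acts later in the same system, departed in the other group: 104, 56.9 and 131 CPM in 7d-MI+21 and 56.7, 38.3 and 25.7 CPM in 1d-MI+21, against 16 to 46.5 CPM in the shams (1.83 in 7d-MI+21, adjusted p = 0.04, held in 10 of 21 alternatives).
Fam107a, an actin-associated stress gene, and Map3k6, a kinase of stress signalling, rose in 1d-MI+21 as well, by 3.47 ± 0.53 and 2.75 ± 0.5 over the shams (adjusted p = 0.018 and 0.046), and the call of Map3k6 held in 9 of 21 alternatives. Fam107a had 1.93, 2.68 and 8.17 CPM in 7d-MI+21 and 31.1, 23.2 and 4.25 CPM in 1d-MI+21, against 1.02 to 2.51 CPM with a median of 1.83 in the shams. Its replicate 3 of 1d-MI+21 lay inside 7d-MI+21, so that these groups overlapped. Tsc22d3, or GILZ, Zbtb16 and the heart glucocorticoid target Klf15 stood above the shams in 1d-MI+21 alone without passing the test (adjusted p = 0.14, 0.059 and 0.15). Klf15 had 5.58, 14.4 and 23 CPM in 7d-MI+21 and 43.3, 54 and 26.7 CPM in 1d-MI+21, against 2.49 to 16.9 CPM with a median of 9.79 in the shams.

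**Figure D4:**
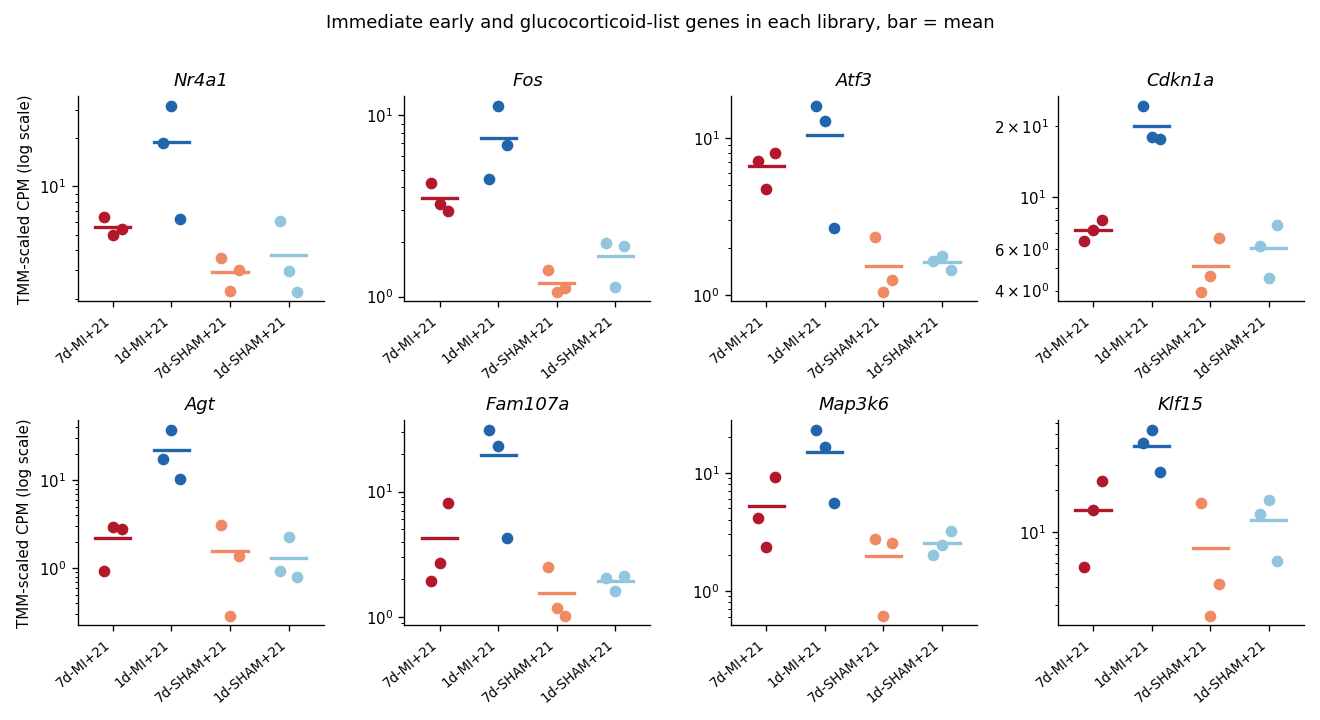
TMM-scaled CPM on a log axis for 3 immediate early genes and 5 genes of the glucocorticoid and fasting list in each library, with group means as bars. The 1d-MI+21 libraries lie above the shams in every panel, Fos and Atf3 are above the shams in 7d-MI+21 too, and replicate 3 of 1d-MI+21 is the lowest of its group for all but Fos.

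Ppargc1a, the coactivator of mitochondrial and fatty acid genes (chr5:51454250-51567726), departed from the shams in both directions. It had 35, 51.8 and 45.1 CPM in 7d-MI+21 and 233, 202 and 154 CPM in 1d-MI+21, against 60.4 to 96.5 CPM with a median of 93.3 in the shams. No library of one group reached another, and the difference of -2.16 ± 0.34 (adjusted p = 0.039) was made of -0.93 ± 0.29 in 7d-MI+21 and 1.23 ± 0.27 in 1d-MI+21 over the shams, neither of which passed the test alone (adjusted p = 0.12 and 0.12).
No other gene of its list passed the test. Of 36 genes of the PGC-1, PPAR and ERR list, 29 lay lower in 7d-MI+21, 8 without overlap and 0 higher without overlap (7.37% and 8.9% of all genes), with a median of -0.39 beside -0.02 over all genes, and summed to 1704 to 2718 CPM in 7d-MI+21 and 3080 to 3213 CPM in 1d-MI+21, against 1964 to 3761 CPM in the shams. The nuclear receptors Esrra and Ppara differed by -0.95 ± 0.44 and -0.69 ± 0.37, and Ppara stood above the shams in 1d-MI+21 alone. Pdk4, the kinase that shuts off pyruvate dehydrogenase, had 58.1, 117 and 125 CPM in 7d-MI+21 and 192, 201 and 214 CPM in 1d-MI+21, against 66.6 to 214 CPM in the shams, with neither group wholly outside the range of the shams.
Nuclear genes of the respiratory chain were lower in 7d-MI+21 in 63 of 65, with a median of -0.71, 15 without overlap (7.37% of all genes), and 3 at an unadjusted p under 0.05 (1.86%). Their medians over the shams were -0.75 in 7d-MI+21 and -0.11 in 1d-MI+21, although 4 genes stood below all shams in 7d-MI+21 and 1 in 1d-MI+21 (2.66% and 2.94% of all genes) and none passed the test. At an unadjusted p under 0.05 over the shams, 26 were lower and 0 higher in 7d-MI+21 (2572 and 2785 of all 24646 genes). In 1d-MI+21, 4 were lower and 9 higher (2203 and 2357 of all genes). The shams differed by age in the same direction, with 47 of 65 lower in 7d-SHAM+21 than in 1d-SHAM+21 (median -0.23, beside 0.14 over all genes). The summed level of the 65 genes was 9268 to 22500 CPM in 7d-MI+21 and 25441 to 30451 CPM in 1d-MI+21, against 23892 to 34790 CPM in the shams. Fatty acid oxidation differed by a median of -0.32 over 22 genes, with both groups above 0 over the shams (0.31 in 7d-MI+21 and 0.66 in 1d-MI+21). The carnitine carrier gene Slc25a20 had 38.5, 55.9 and 67.3 CPM in 7d-MI+21 and 80.3, 55.9 and 64.2 CPM in 1d-MI+21, against 31.2 to 91.6 CPM in the shams, a difference of -0.31 ± 0.41 that did not exceed its error. Cpt1a, an entry enzyme of the carnitine shuttle, overlapped between the infarcted groups, with 30.5, 11.8 and 19.4 CPM in 7d-MI+21 and 12.4, 7.13 and 11.5 CPM in 1d-MI+21, against 6.13 to 13.2 CPM in the shams (0.99 ± 0.39, adjusted p = 0.62). It does not stand for the shuttle, where 4 of 6 genes tested lay lower and 2 higher in 7d-MI+21 (median -0.26).

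Markers of endothelium, smooth muscle and pericytes, lymphocytes, neutrophils and mast cells, nerve, red cells, skeletal muscle, brown fat, and lung and thymus held 0 genes past the test between the infarcted groups. Red cell genes lay lower in 7d-MI+21 in 7 of 7 tested, with a sum of 421 to 798 CPM in 7d-MI+21 and 778 to 1100 CPM in 1d-MI+21, against 432 to 598 CPM in 7d-SHAM+21 and 624 to 1756 CPM in 1d-SHAM+21. The shams differed by age in the same list, with all 7 lower in 7d-SHAM+21 than in 1d-SHAM+21 (median -0.98, 3 at an unadjusted p under 0.05, beside 140 of all 24646 genes lower), and the sum overlapped between 7d-MI+21 (mean 576 CPM) and 7d-SHAM+21 (mean 509 CPM). Hbb-bt, a beta globin gene, passed as lower in 7d-MI+21 against all shams (-2.34, adjusted p = 0.049, held in 6 of 21 alternatives) and did not pass against 7d-SHAM+21 (-2.12, adjusted p = 0.17). The plot of list medians gives these lists beside the pathways.

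**Figure D5:**
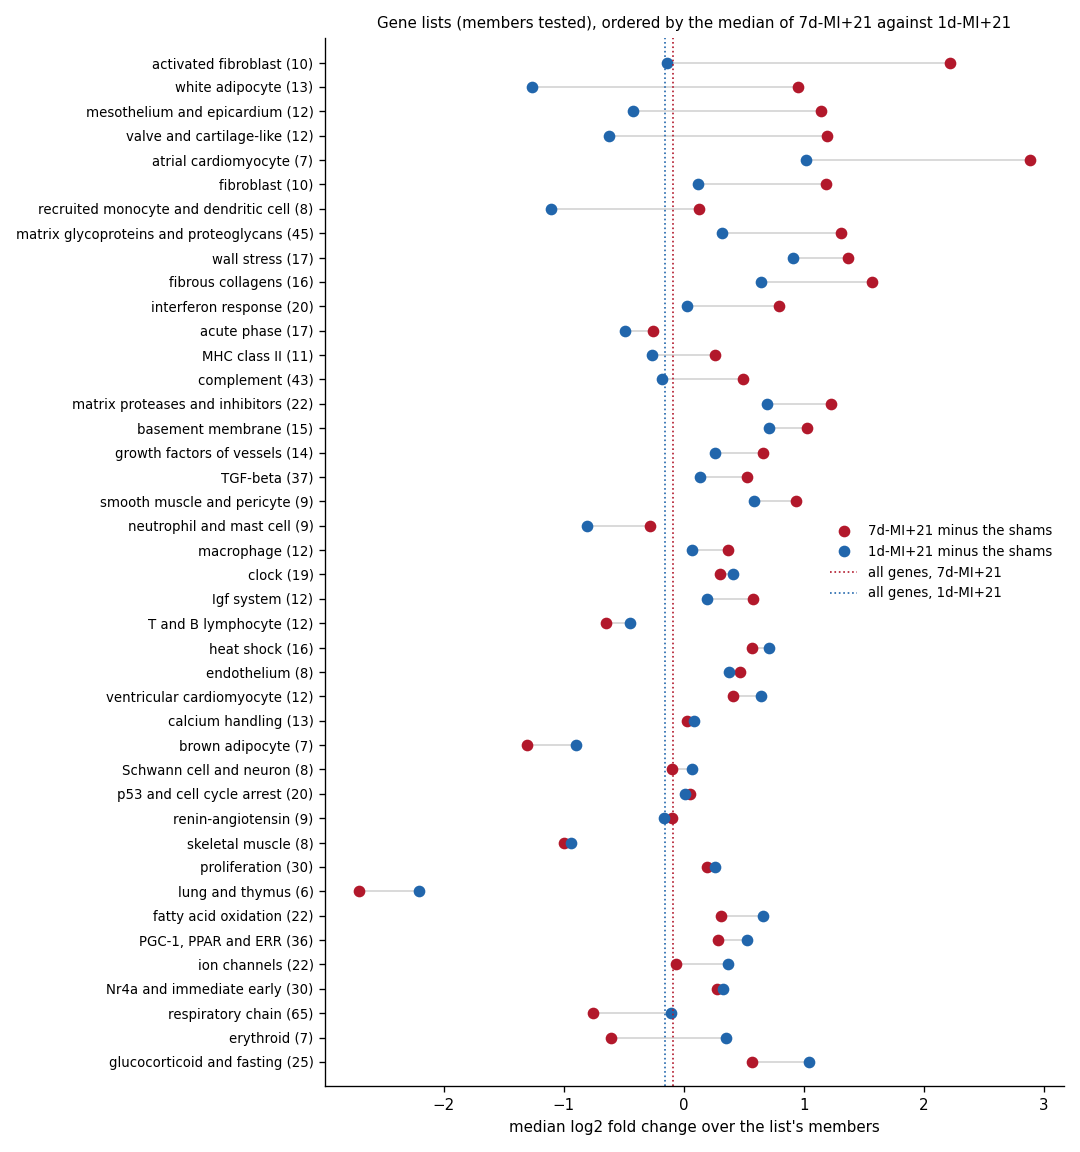
Median log2 fold change over all 6 shams for each pathway and marker list, in 7d-MI+21 (red) and in 1d-MI+21 (blue), with the number of members tested in brackets and the medians of all genes as dotted lines. Fibroblast and matrix lists lie to the right for 7d-MI+21, the respiratory chain lies to the left for 7d-MI+21, and the glucocorticoid and fasting list lies farther right for 1d-MI+21.

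Some genes departed from the shams on the same side in both infarcted groups. Spon2, a matrix protein that binds microbes, had 15.3, 11.2 and 7.83 CPM in 7d-MI+21 and 11.4, 13.3 and 10.2 CPM in 1d-MI+21, against 2.52 to 5.52 CPM with a median of 2.86 in the shams. The rises were 1.84 ± 0.28 and 1.86 ± 0.28 over the shams (adjusted p = 0.01 and 0.016). H2-D1, a class I histocompatibility gene, had 79.2, 105 and 118 CPM in 7d-MI+21 and 121, 194 and 126 CPM in 1d-MI+21, against 28 to 78.8 CPM with a median of 31.1 in the shams. It passed over the shams in 1d-MI+21 (adjusted p = 0.024) but not in 7d-MI+21 (adjusted p = 0.055). It did not pass the test between the infarcted groups, so no difference between them was shown. Cnksr1, a scaffold of Ras signalling, passed in both, with 5.7, 2.78 and 5.02 CPM in 7d-MI+21 and 8.82, 8.4 and 5.04 CPM in 1d-MI+21, against 0.734 to 2.26 CPM in the shams, and its call in 7d-MI+21 held in 6 of 21 alternatives. Aebp1 and Thbs3, secreted matrix genes, stood above the shams in both groups and passed in 7d-MI+21 (2.22 and 2.04). Sox12, a transcription factor of the SoxC family, lay below the shams in both: 2.79, 6.17 and 4.41 CPM in 7d-MI+21 and 4.47, 6.13 and 3.38 CPM in 1d-MI+21, against 7.6 to 17.9 CPM with a median of 16.2 in the shams. It fell in 7d-MI+21 (-1.71, adjusted p = 0.047, held in 8 of 21 alternatives).

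The 20 genes that the study's text names for this follow-up are not independent evidence, having been chosen on these samples: 1 passed as higher in 7d-MI+21 (H2-Eb1) and 1 as lower (Ppargc1a), and 17 of the 20 had 3 and 3 libraries without overlap, 9 higher and 8 lower in 7d-MI+21 (8.9% and 7.37% of all genes). Their departures were mixed. Pianp, a transmembrane gene with 0.495, 1.36 and 2.34 CPM in 7d-MI+21 and 0.235, 0.24 and 0.11 CPM in 1d-MI+21 against 0.831 to 2.54 CPM in the shams, departed downwards in 1d-MI+21. Pdcd4, an inhibitor of translation, did so too, with a difference of 0.69 ± 0.28 between the infarcted groups. Cebpb, a factor of liver and fat metabolism, had 5.67, 14.8 and 8.13 CPM in 7d-MI+21 and 23.6, 35.5 and 15.9 CPM in 1d-MI+21, against 4.33 to 19.6 CPM in the shams, with neither group wholly outside them, and Casp9, an initiator of apoptosis, differed by 0.51 ± 0.35 with overlap. The histone gene Hist1h2bj had 0.112, 0.259 and 0.356 CPM in 7d-MI+21 and 1.27, 1.16 and 1.37 CPM in 1d-MI+21, against 0.266 to 1.21 CPM in the shams, so the infarcted groups did not overlap and neither was wholly outside the shams.

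Further genes lower in 7d-MI+21 by the rule for named genes departed in 1d-MI+21. Noct, a phosphatase of NADP(H) with a daily rhythm, had 4.22, 4.28 and 5.68 CPM in 7d-MI+21 and 19.5, 15.9 and 13 CPM in 1d-MI+21, against 5.32 to 8.5 CPM with a median of 6.86 in the shams. Only 1d-MI+21 lay above the shams, with -1.77 ± 0.31 between the infarcted groups (adjusted p = 0.066). Pip5k1b, a lipid kinase, the histone gene Hist1h2bl, Tmem164 and Nts, the neurotensin precursor, shared that position, with differences between the infarcted groups of -1.44, -1.69, -1.24 and -1.29. Hopx, a cofactor that restrains cardiomyocyte growth genes, was like Ppargc1a apart on both sides, with 13.6, 37.3 and 36.4 CPM in 7d-MI+21 and 70.3, 75.2 and 62.1 CPM in 1d-MI+21, against 38.1 to 48.8 CPM with a median of 41.3 in the shams, and did not pass (0.35 adjusted p).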

How the data were processed

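Total RNA was isolated with TRIzol, made into ScriptSeq libraries and sequenced. The deposited count tables of the authors hold whole reads per gene on GRCm38, and the submitters' processing notes list, without their roles, Cufflinks (2.2.1), TopHat2 (2.0.11) and Bowtie2 (2.2.2). No counting tool or strand setting is given in the sources used here. The files hold 45318 genes, and lanes of 2 samples were summed. The counts column of each file was used, and 4 other columns of per-sample values were not.

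The 12 libraries of the 21-day follow-up were fitted together with edgeR (4.0.16) in R (4.3.3): filterByExpr, TMM factors, 4 group means, robust quasi-likelihood test, 2-sided, with Benjamini-Hochberg adjustment over 24646 genes and a threshold of 0.05. Fold changes are log2 with standard errors. Groups follow the labels. CPM values are counts scaled to library size with TMM factors. Totals of 40514177 to 168550985 counts limit low genes more than others, and PCR reads are not independent molecules.

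Named genes were all genes past the test between the infarcted groups, the 12 higher and 12 lower protein-coding genes of smallest p without overlap and with a mean of at least 5 CPM, up to 10 a direction against the shams, genes named by the study and up to 3 of each list. Some genes that this rule names are not reported here. Other list members named in the text were chosen after their values were seen. Members and lists (43 lists, 726 symbols, 724 matched, 710 tested) were chosen with earlier results of these data known. Alternatives were other scaling factors, other filters, DESeq2 (1.42.0), limma-voom (3.58.1), the replicate number as a block, the compared groups alone and each library left out. The test was also run on simulated counts with known changes, and the outcome is not given here. Sequences are from RefSeq's table for GRCm38.p6. Figures were drawn with matplotlib (3.10.9).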

Additional observations from a re-analysis of the deposited data

How the results depend on the processing

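The 8 genes between the infarcted groups became 4 with upper-quartile factors, 102 with no filter on low counts, 13 with a mean count of at least 50, 204 by DESeq2, 477 by limma-voom, 76 with the infarcted groups alone and 0 to 99 with 1 library left out. Against 7d-SHAM+21, the 0 genes of 7d-MI+21 became 1 with TMM without rRNA loci and the 20 most abundant genes, 383 with no filter, 988 by DESeq2, 11216 by limma-voom, and 0 to 5903 with 1 library left out. Against 1d-SHAM+21, the 4 genes of 1d-MI+21 became 2 with upper-quartile factors, 154 with no filter, 334 by DESeq2, 3890 by limma-voom, 600 with these groups alone, and 0 to 1209 with 1 library left out. Against all shams, the 166 genes of 7d-MI+21 became 74 with DESeq2 size factors, 35 with upper-quartile factors, 255 with that restricted TMM, 1365 with no filter, 88 at a mean count of 50, 2294 by DESeq2, 9266 by limma-voom, and 1 to 5961 with 1 library left out. The 29 genes of 1d-MI+21 became 16 with upper-quartile factors, 509 with no filter, 1100 by DESeq2, 9084 by limma-voom, and 5 to 5520 with 1 library left out. The difference of the MI effect went to 17 genes with no filter, 41 by DESeq2, 43 by limma-voom and 0 to 7 with 1 library left out. With both shams of highest rRNA share left out together, an alternative chosen after seeing the data, the counts were 20 between the infarcted groups, 11 for 7d-MI+21 against 7d-SHAM+21, 8 for 1d-MI+21 against all shams and 3 for the difference. The causes were not tested.

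With the replicate number as a block, 9 genes passed between the infarcted groups, 46 for 7d-MI+21 against 7d-SHAM+21, 4 for 1d-MI+21 against 1d-SHAM+21, and 139 and 13 for 7d-MI+21 and 1d-MI+21 against all shams. Deviations of same-numbered libraries correlated at -0.40 to 0.43 and those of differently numbered libraries at -0.61 to 0.54. Whether the number marks anything that the samples share was not tested.

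Among the genes picked by the rule for named genes, none past a test changed direction. Between the infarcted groups Gm7292, C7 and H2-Eb1 kept their call in 19 of 22 alternatives, and 1700030F04Rik in 20, C3 and Col8a1 in 16, Ppargc1a and Nr4a3 in 14. Uncalled differences near 0 turned sign: Ucp1 (-2.79 to 0.26), Sftpa1 (-2.0 to 0.67), Sftpb (0.14 with the block, -0.75 to 0.93), Sox12 (-0.35 to 0.20) and Spon2 (0.0037 with upper-quartile factors, 0.0046 with restricted TMM, 0.021 with no filter, 0.0094 without the shams of highest rRNA share, -0.27 to 0.21), each range being over libraries left out.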

Other observations

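Interferon-responsive genes had a median of 0.57 between the infarcted groups over 20 genes, with 7 higher and 0 lower at an unadjusted p under 0.05 (4.66% and 1.86% of all genes) and none past the adjusted test of edgeR. The departure lay with 7d-MI+21, whose median over the shams was 0.79, against 0.03 in 1d-MI+21. Gbp2, a guanylate-binding protein induced by interferon, had 16.7, 9.33 and 7.36 CPM in 7d-MI+21 and 3.49, 4.78 and 5.46 CPM in 1d-MI+21, against 2.87 to 6.5 CPM in the shams. Its 3 libraries of 7d-MI+21 lay above all others.

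Of 30 proliferation genes, 6 were lower and 1 higher in 7d-MI+21 at an unadjusted p under 0.05 (1.86% and 4.66% of all genes), none past the adjusted test of edgeR. Cdk1, the mitotic kinase, had 2.03, 2.15 and 2.09 CPM in 7d-MI+21 and 4.45, 3.05 and 3.9 CPM in 1d-MI+21, against 1.04 to 1.86 CPM in the shams, so that both infarcted groups stood above the shams. Birc5, or survivin, had 1.4, 2.09 and 1.81 CPM in 7d-MI+21 and 4.75, 3.18 and 3.48 CPM in 1d-MI+21, against 1.53 to 2.71 CPM in the shams, with 1d-MI+21 alone above them. Mcm4, a replication helicase subunit, was the 1 higher in 7d-MI+21 (1.06 ± 0.37).

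Of 12 genes of the Igf system 1 stood below the shams in 1d-MI+21 and 0 above them, and of 19 clock genes 4 stood below and 2 above (2.94% and 2.97% of all genes). Igf1, a growth factor of heart and fibroblasts, had 80.7, 74.6 and 54.1 CPM in 7d-MI+21 and 19.5, 21.6 and 24.3 CPM in 1d-MI+21, against 24.4 to 64.5 CPM in the shams. For Per3, a clock gene, the values were 9.82, 5.54 and 21.4 CPM in 7d-MI+21 and 3.16, 2.22 and 3.71 CPM in 1d-MI+21, against 6.26 to 10.5 CPM in the shams. All 3 libraries of 1d-MI+21 lay below the shams for both, without an adjusted p under 0.05 (0.21 and 0.17 over the shams by edgeR). The hour of collection is not given in the sources used here. Igfbp5, a binding protein of these growth factors, rose in 7d-MI+21 over the shams (1.29 ± 0.27, adjusted p = 0.047), a call that held in 6 of 21 alternatives and was lost with the block and with DESeq2 and upper-quartile factors.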
